A study of Mus musculus with 8 samples.

Results

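Cardiac excitation rests on ion channels that open in a fixed order, and 8 genes of that machinery were followed here across the nuclei of the adult mouse heart. They were chosen by symbol from the 32285 genes counted, and all 8 were found: the intracellular fibroblast growth factors Fgf12, Fgf13 and Fgf14, the sodium channel genes Scn4a, Scn4b and Scn7a, and the pacemaker channel genes Hcn2 and Hcn4. Voltage-gated sodium channels carry the inward current that starts the action potential: an alpha subunit forms the pore, and beta subunits modify it. Intracellular FGFs lack the secretion of other FGFs and bind the cytoplasmic tail of the alpha subunit, where they shift its inactivation and its delivery to the membrane. HCN channels open on hyperpolarisation and carry the funny current, which drives the slow depolarisation of nodal cells.

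The study profiled single nuclei of whole adult hearts by droplet sequencing (10x Genomics), in female and male mice labelled as wild-type non-transgenic (nTg) or as transgenic for constitutive CCNA2, the cell cycle protein cyclin A2 (Tg). The labels give 2 libraries for each of these 4 groups, and no age, transgene promoter or number of hearts per library. In 3 of the 8 libraries, nTg female 2, nTg male 1 and nTg male 2, the matrix held the same values as that of a library labelled Tg and had another number of columns than its own barcode list. Those 3 were not analysed. Of the 5 that were, 1 is labelled nTg (female 1) and 4 are labelled Tg: female 1, female 2, male 1 and male 2, the order in which values are given below.

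The 5 libraries held 25045167 to 38593706 unique molecular identifiers (UMIs, counted transcript molecules), and 5773 to 8817 nuclei each were kept. Ccna2, the gene of the transgene product, went against the labels in 2 libraries: cardiomyocytes of the library labelled nTg female 1 held 448 counts per 1000000 UMIs (CPM), and those of the library labelled Tg female 1 held 0.532 CPM from 7 UMIs, while the other 3 libraries held 144 to 840 CPM. Genotype labels are therefore quoted as labels throughout. Xist and Uty matched the labelled sex in 5 of 5 libraries. Pairs of libraries shared at most 28 barcodes, or 0.341% of the smaller library.

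Nuclei were clustered without the 8 genes, and clusters were named from marker lists. Levels were compared in 9 classes that had at least 20 nuclei in each library. Cardiomyocytes (6424 nuclei, in clusters that raised 8 or 9 of 10 cardiomyocyte markers) had median depths of 5905 to 8022 UMIs per nucleus; the whole libraries had 2105 to 3053. A level is the CPM of the summed UMIs of a class in 1 library, given as mean ± SD over 5 libraries. Because a cluster is defined by expression, differences between classes and states are descriptions and carry no test, and 1 library in a class with few nuclei can rest on very few UMIs. Nuclear counts of long genes include many unspliced transcripts, so levels are compared within a gene and not between genes. The 8 genes span very different lengths in the mm10 (GRCm38) annotation. Fgf14 (chr14:123977907-124677127, minus strand), Fgf12 (chr16:28160098-28753068, minus) and Fgf13 (chrX:59062145-59568071, minus) cover 699, 593 and 506 kb. Scn7a (chr2:66673425-66784914, minus) covers 111 kb, Hcn4 (chr9:58823412-58863175, plus) 39.8 kb, Scn4a (chr11:106318592-106353288, minus) 34.7 kb, Hcn2 (chr10:79716634-79736108, plus) 19.5 kb and Scn4b (chr9:45138395-45154152, plus) 15.8 kb.

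The stretch of 250 bases upstream of the start is shown for 3 genes that RefSeq gives a single start and that lead in 3 different classes below: Hcn4 in cardiomyocytes, Fgf14 in endocardium and Scn7a in Schwann cells. Sequences are from RefSeq (GRCm38.p6), 5′ to 3′ on the gene's own strand, at chr9:58822699-58822948 (plus), chr14:124192547-124192796 (minus) and chr2:66784911-66785160 (minus). The RefSeq start of Fgf14 lies inside the longer gene span given above. Capitals mark the match of a searched motif.
Hcn4: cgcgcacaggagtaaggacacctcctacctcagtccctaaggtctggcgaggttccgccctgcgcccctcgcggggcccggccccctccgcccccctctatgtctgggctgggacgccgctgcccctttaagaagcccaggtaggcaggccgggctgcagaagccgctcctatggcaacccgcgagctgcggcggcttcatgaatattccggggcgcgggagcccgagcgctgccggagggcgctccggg
Fgf14: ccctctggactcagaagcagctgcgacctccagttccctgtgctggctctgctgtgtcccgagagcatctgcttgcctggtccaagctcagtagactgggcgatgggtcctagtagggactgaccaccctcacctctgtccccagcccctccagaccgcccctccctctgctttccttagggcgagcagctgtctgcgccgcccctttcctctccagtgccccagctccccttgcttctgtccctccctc
Scn7a: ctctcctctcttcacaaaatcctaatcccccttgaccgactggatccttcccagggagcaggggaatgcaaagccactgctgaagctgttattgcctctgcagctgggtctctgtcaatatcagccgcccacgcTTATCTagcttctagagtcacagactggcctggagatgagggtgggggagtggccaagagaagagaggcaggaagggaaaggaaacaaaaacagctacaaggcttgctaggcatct

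The 3 windows differed in composition. Hcn4 had 71.2% G and C with 25 CG dinucleotides, Fgf14 64% with 7, and Scn7a 53.2% with 3, against medians of 52.4% and 6 over the 32851 promoters of the RefSeq table. The 8 genes matched 14 promoters there, 4 each for Fgf12 and Fgf13. On both strands, the T-box core GGTGTG was in 0 of the 14 and in 16.3% of all promoters, the GATA core AGATAA in 1 of the 14 (Scn7a, read on the other strand) and in 9.99% of all, and the TATA box TATAAA in 0 of the 14 and in 12.4% of all. A match describes letters only.

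Across the 9 classes, 5 of the 8 genes were highest in cardiomyocytes (Fgf13, Scn4a, Scn4b, Hcn2 and Hcn4), and Fgf12, Fgf14 and Scn7a were highest in 3 other classes. Every cardiomyocyte library lay above every library of the other 8 classes for 3 of the 8 genes, Fgf13, Scn4a and Hcn4, against 4.6% of the 20394 genes with at least 1 CPM in their highest class. Schwann cells were too shallow to place Hcn4, since a count of 0 over the 5 libraries together allows up to 5.48 CPM there. Scn4a cleared Schwann cells narrowly, at no less than 11.94 CPM against no more than 11.87 CPM from 4 UMIs in all. Hcn4 cleared smooth muscle narrowly, at no less than 3.35 CPM against no more than 3.07 CPM from 1 UMI in all. The same class was highest for all 8 genes under each alternative clustering and filter and without each single library. Without both libraries whose Ccna2 level went against the label, this held for 7, and Scn4b was higher in smooth muscle (32 CPM) than in cardiomyocytes (30 CPM). A level is relative to all other RNA of the same class.

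**Figure D1:**
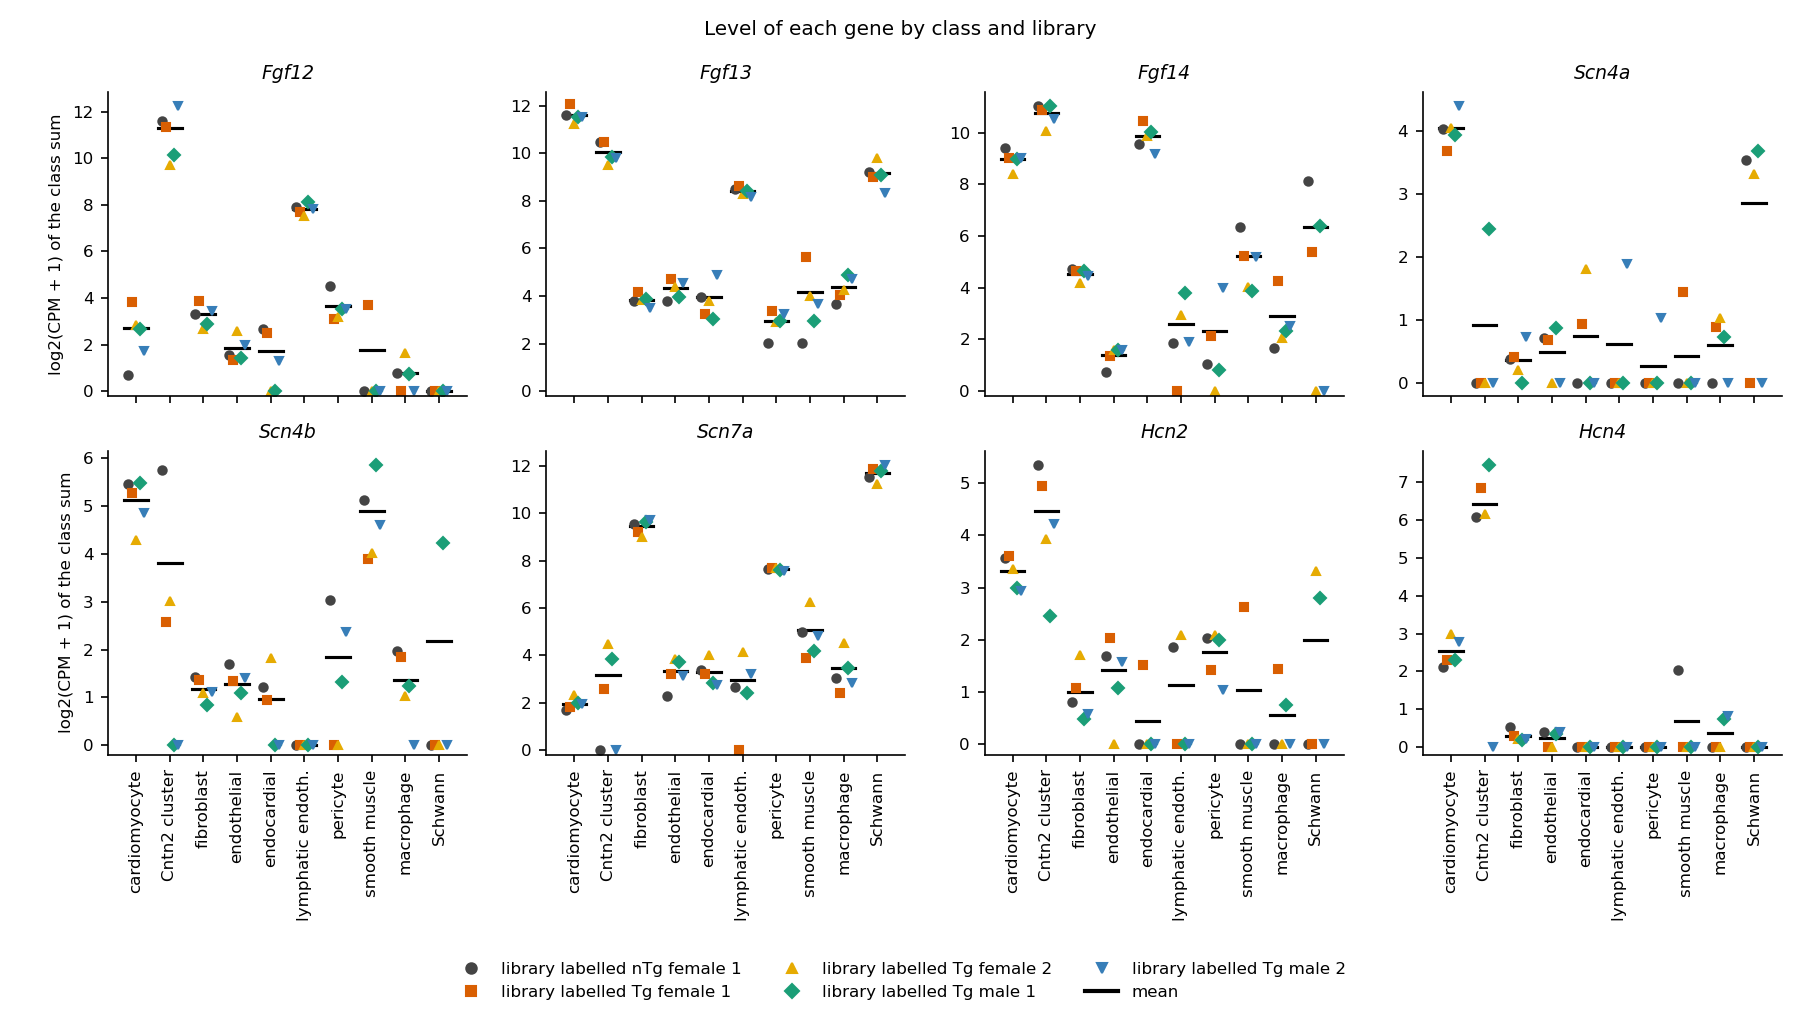
Level of the 8 genes as log2(CPM + 1) of the UMIs summed per class, with 1 symbol per library and a bar at the log2 of the mean CPM + 1, for the 9 classes and the unnamed Cntn2 cluster. Fgf13 sits highest in cardiomyocytes, Fgf12 in the Cntn2 cluster and then in lymphatic endothelium, and Scn7a in Schwann cells and then fibroblasts.

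Fgf13, whose protein is the main intracellular FGF of the adult mouse ventricle, filled cardiomyocyte nuclei. Cardiomyocytes held 3110 CPM in the library labelled nTg female 1, 4314 in Tg female 1, 2398 in Tg female 2, 2896 in Tg male 1 and 2906 in Tg male 2 (3125 ± 715 SD, n = 5). A UMI was found in 6237 of 6424 cardiomyocyte nuclei and in 30 of 2180 pericyte nuclei. With each nucleus thinned to 1000 UMIs, 82.3% to 90.9% of cardiomyocyte nuclei kept one. Schwann cells came next at 567 ± 205 CPM, 5.51-fold lower, and lymphatic endothelium after them at 338 ± 40.9 CPM, below Schwann cells in 5 of 5 libraries with overlapping ranges. In the other 6 classes the means were 6.81 to 19.6 CPM, and most neighbours in that order overlapped.

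Fgf14, better known from neurons, where its protein tunes sodium channels at the axon initial segment, was shared between endocardium and cardiomyocytes. Endocardial nuclei, the endothelial lining of the chambers, held 756, 1399, 929, 1049 and 578 CPM in the order of libraries above (942 ± 312 SD, n = 5). Cardiomyocytes held 673, 525, 333, 510 and 516 CPM (511 ± 121). Endocardium was higher within each of the 5 libraries, yet the ranges overlapped. Depth differed between these classes (endocardial medians of 2082 to 3171 UMIs), and unthinned shares ran the other way: 588 of 1348 endocardial and 3745 of 6424 cardiomyocyte nuclei had a UMI. At 1000 UMIs per nucleus, 23.4% to 39.2% of endocardial and 24% to 33.7% of cardiomyocyte nuclei kept one. Endothelium of the other vessels held 1.63 ± 0.585 CPM, with a UMI in 23 of 7012 nuclei, whose median depths were 1562.5 to 2201 UMIs. Schwann cells had 80.2 ± 116 CPM, where 26 UMIs of 1 nucleus made the highest library. Smooth muscle had 36.1 ± 26.8 and fibroblasts 22.3 ± 3.21 CPM.

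Fgf12, the main form in human heart, was nearly absent from most cardiomyocyte nuclei and was a lymphatic gene among the named classes. Lymphatic endothelium held 239.5, 207.6, 184.3, 278.5 and 225.8 CPM (227 ± 35.4 SD, n = 5), 19.4-fold above pericytes, the next class at 11.7 ± 5.81, with no overlap. It was found in 220 of 777 lymphatic nuclei, of which the highest held 11 UMIs, in 28 of 7012 endothelial nuclei and in 0 of 186 Schwann nuclei (a count of 0 allows up to 17.8 to 40.1 CPM there). Cardiomyocytes held 0.629, 13.2, 6.28, 5.38 and 2.33 CPM (5.56 ± 4.82), and few nuclei carried it: 58 of 6424 nuclei held all 301 UMIs, and the 10 highest held 76.4% of them. Of 38 nuclei with at least 10 UMIs of Fgf12 in the whole data set, 29 were in the Cntn2 cluster described below and 7 were cardiomyocytes.

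Scn4a, the pore-forming subunit of skeletal muscle, was measured at a low level in cardiomyocytes at 15.5, 11.9, 15.7, 14.4 and 20.3 CPM (15.6 ± 3.02 SD, n = 5). Schwann cells followed at 6.3 ± 5.85 CPM from 4 UMIs in all, and the other 7 classes had means of at most 0.69 CPM. Scn4b, a beta subunit that speeds recovery and gives the resurgent current in neurons, was at 43.3, 38, 18.5, 43.6 and 27.9 CPM in cardiomyocytes (34.2 ± 10.8). Smooth muscle held 28.8 ± 17.9 CPM of Scn4b, below cardiomyocytes in 4 of 5 libraries with overlapping ranges, so these classes did not differ beyond their spread. No UMI of Scn4b was found in 777 lymphatic nuclei.

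Scn7a, which encodes the sodium-sensing channel NaX rather than a fast voltage-gated channel, was lowest in cardiomyocytes of all 9 classes (2.88 ± 0.668 CPM). Schwann cells held 2958, 3742, 2394, 3521 and 4199 CPM (3363 ± 702 SD, n = 5), with a UMI in 182 of 186 nuclei against 117 of the much deeper 6424 cardiomyocyte nuclei. Fibroblasts held 743, 594, 503, 793 and 838 CPM (694 ± 141). Pericytes held 198 ± 8.59 CPM and smooth muscle 32.9 ± 24.9. The order Schwann cells, fibroblasts, pericytes, smooth muscle held in 5 of 5 libraries, without overlap between the first 3 or between pericytes and smooth muscle. Within fibroblasts, Scn7a was at 892 ± 68.7 CPM in the cluster led by Fgf10 and Inmt and at 311 ± 111 CPM in the cluster led by Dkk3 and Wif1.

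Both pacemaker channel genes were rare in the cardiomyocyte class. Hcn2 was at 10.9, 11.1, 9.26, 6.93 and 6.63 CPM (8.96 ± 2.12 SD, n = 5), with Schwann cells next at 2.98 ± 4.22 from 2 UMIs. Hcn4, the main pacemaker channel of the sinoatrial node, was at 3.35, 3.96, 6.94, 3.92 and 5.88 CPM (4.81 ± 1.53), with a UMI in 215 of 6424 nuclei. No class but cardiomyocytes had more than 8 UMIs of Hcn4. No UMI was found in pericytes, endocardium, lymphatic endothelium or Schwann cells. In a single library, a count of 0 allowed up to 2.26 to 4.91 CPM in pericytes, 5.56 to 9.87 CPM in lymphatic endothelium and 17.8 to 40.1 CPM in Schwann cells. Over the 5 libraries together it allowed up to 1.46 CPM in lymphatic endothelium, below the levels of cardiomyocytes, and 5.48 CPM in Schwann cells, where a level like the mean of cardiomyocytes could not be detected.

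Of 31 other genes of these families and their partners, 28 reached 1 CPM in at least 1 class, and their highest classes were spread: 7 in cardiomyocytes, 5 in lymphatic endothelium, 4 each in Schwann cells, pericytes and smooth muscle, and 2 each in fibroblasts and macrophages. Lymphatic endothelium, where Fgf12 led, was also highest for the alpha subunit Scn1a at 22.3 ± 9.25 CPM and for the beta subunit Scn3b at 77.7 ± 33.8 CPM. Schwann cells, where Scn7a led, were highest for Ank3 (3294 ± 1027 CPM), the ankyrin that anchors sodium channels, and for Pex5l (566 ± 304 CPM), a partner of HCN channels. Pericytes were highest for Scn3a (308 ± 43 CPM) and fibroblasts for Scn2a (45.1 ± 8.11 CPM).

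Genes whose levels ran most like each of the 8 were ranked by Pearson's r of log2(CPM + 1) over 45 points, 9 classes in 5 libraries, among 14180 genes. These points share libraries and depth, and r is a description. Fgf13 ran most like Plet1os (r = 0.916) and, among others, Nrap (0.881), and Fgf14 most like Hand2 (0.847), Hand2os1 and Tbx5. Scn7a ran most like Abca8a (0.952), C730002L08Rik and Matn2, and Fgf12 most like Gm536 (0.852), Brinp1 and Gm11837. Hand2 and Abca8a were themselves on the marker lists of endocardium and fibroblasts by which clusters were named. Scn4a was nearest to 1700119I11Rik (0.931), Scn4b to Kcnh2 (0.873), Hcn4 to Notum (0.943) and Hcn2 to A630019I02Rik (0.783).

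A cluster of 118 nuclei stood apart from cardiomyocytes and was led by Cntn2, a marker of the ventricular conduction system. It had 9, 39, 31, 33 and 6 nuclei in the 5 libraries. Its best cell type list was that of cardiomyocytes, of which it raised 2 of 10 markers over all other nuclei. A name required at least 3, so the cluster was left unnamed. Relative to cardiomyocytes it raised 5 of 7 conduction, 6 of 8 atrial, 4 of 9 nodal and 1 of 7 ventricular markers. The mean log2 ratios over these lists were 3.98, 2.58, 3.06 and -0.299. Cntn2 itself was at 420 against 0.712 CPM, Etv1 at 762 against 8.75 and Myl4, an atrial myosin light chain, at 218 against 9.45. Markers of other cells moved with it: 3 of 8 endocardial markers were raised (summed level 403 to 744 CPM against 136 to 234), 3 of 8 smooth muscle (53.2 to 175 against 16.9 to 46.1), 2 of 8 Schwann (173 to 399 against 20.8 to 28.6, with Sox10, Cdh19 and Gfra3 at 0) and 2 of 8 endothelial (35 to 163 against 58.3 to 76). Fibroblast markers were raised for 1 of 9, pericyte markers for 1 of 8 and macrophage markers for 0 of 8. The 10 cardiomyocyte markers summed to 32214 to 50053 CPM against 49607 to 58224. The part of these markers in the values below was not tested.

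The Cntn2 cluster held Fgf12 at 3057, 2591, 844, 1125 and 4835 CPM (2490 ± 1613 SD, n = 5), Fgf14 at 2087, 1894, 1063, 2097 and 1489 (1726 ± 445), and Fgf13 at 1409, 1420, 730, 910 and 894 (1073 ± 320). Against cardiomyocytes, Fgf12 was 448-fold and Fgf14 3.38-fold higher in the mean, and Fgf13 was lower by 1.54 on the log2 scale; none of the 3 ranges overlapped. Some of the Fgf12 value rested on single nuclei, since 271 of the 276 UMIs of Tg male 2 came from 1 nucleus. Without the highest nucleus of each library, Fgf12 was at 1336 ± 1051 CPM and Fgf14 at 1305 ± 606, and without Tg male 2 Fgf12 was at 1904 ± 1085. Fgf12 was found in 74 of the 118 nuclei, Fgf14 in 89 and both in 62.

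Hcn4 was higher than in cardiomyocytes in 4 of 5 libraries of the Cntn2 cluster, at 66.5, 115, 70.9 and 175 CPM, and was not detected in the 6 nuclei of Tg male 2, where a count of 0 allows up to 52.6 CPM. In all, 77 UMIs of Hcn4 were found in 26 of 118 nuclei, 20 of which also held Fgf12. Hcn2 was at 21.2 ± 13.8 CPM against 8.96 ± 2.12, higher in 4 of 5 libraries with overlapping ranges. Scn4a had 1 UMI in 118 nuclei, or 1.43 CPM over the 5 libraries together (95% exact Poisson interval 0.0363 to 7.99, counting error only), against 11.9 to 20.3 CPM in cardiomyocytes. It could not be read library by library: in the 4 libraries without a UMI, a count of 0 allowed up to 15 to 52.6 CPM, in each of them above the level of its cardiomyocytes. Scn4b was at 53.2, 4.98, 7.09, 0 and 0 CPM, below cardiomyocytes in 4 of 5 libraries, and Scn7a at 7.94 ± 9.26 CPM overlapped them. Without both libraries whose Ccna2 level went against the label, Hcn2 was at 12.1 ± 6.77 and Scn4b at 2.36 ± 4.09 CPM.

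By count, 2 of the 8 genes (Fgf12 and Fgf14) lay above cardiomyocytes in 5 of 5 libraries and 2 (Fgf13 and Scn4a, the latter from 4 counts of 0 and 1 UMI) below in 5 of 5. Of the 15867 genes with at least 1 CPM in either, 4.83% lay above and 14.5% below in 5 of 5. The median log2 ratio was 1.18 for the 8 genes and 0.00538 for all genes. The value of 1.18 lies between Scn7a (1.20, from 7 UMIs in the cluster) and Hcn2 (1.16, from 13 UMIs), whose ranges both overlapped cardiomyocytes. Among the 31 related genes, 23 reached 1 CPM, of which 6 were above and 3 below in all 5 libraries. The list of pacemaker channels and HCN partners had 4 of its 5 measured members above: the calcium channel genes Cacna1d (395 against 12.3 CPM), Cacna1g (252 against 17.3) and Cacna1h (152 against 4.99), and Pex5l (57.5 against 9.91). Cacna1g was also among the conduction markers. Ank3 was above at 2523 against 793 CPM, and Scn3b at 26.5 against 7.96. Gja1, the gap junction connexin of working myocardium, was below at 55.3 against 491 CPM, and Gpd1l at 6.44 against 22.6.

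**Figure D2:**
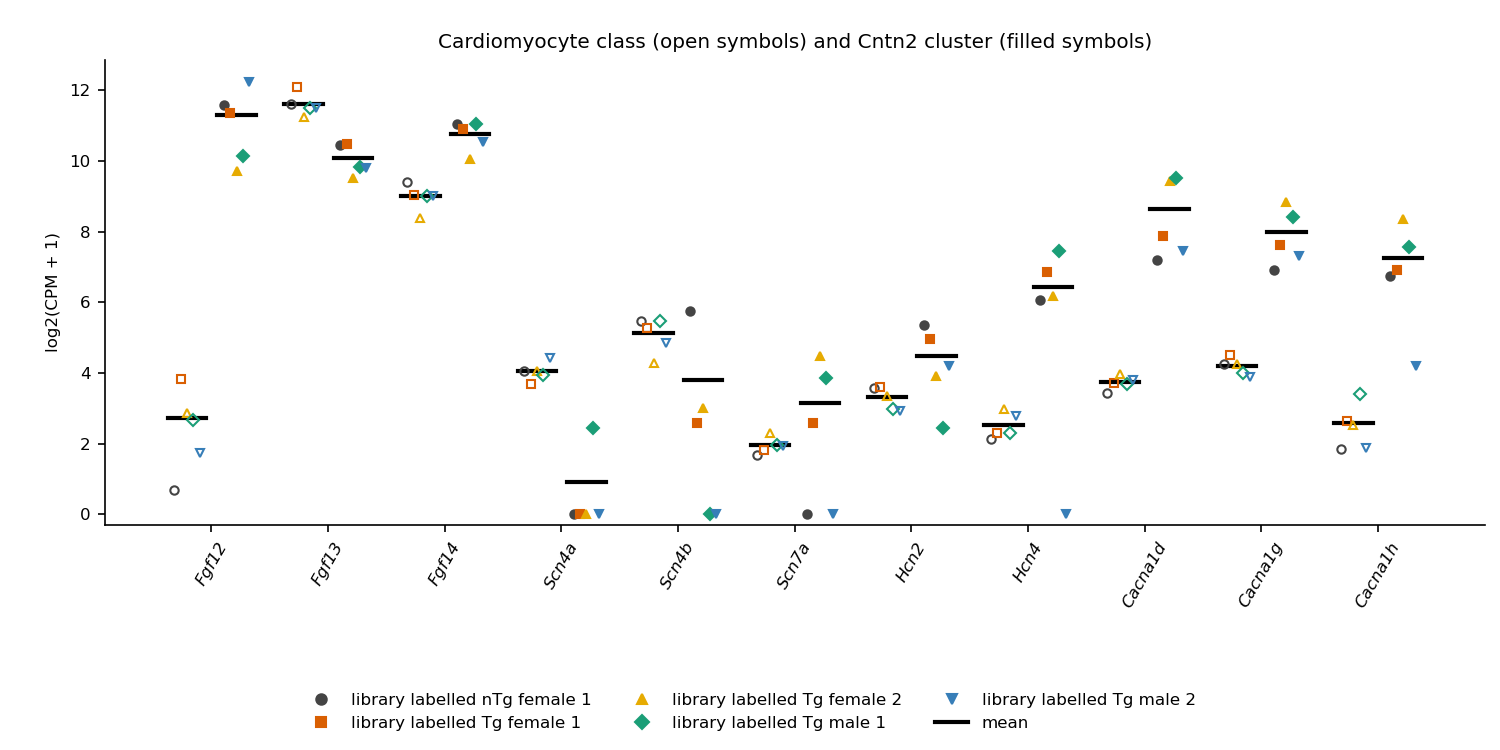
Level of the 8 genes and 3 related channel genes as log2(CPM + 1), with open symbols for cardiomyocytes, filled symbols for the Cntn2 cluster, 1 symbol per library and a bar at the log2 of the mean CPM + 1. Fgf12 separates the groups most widely, Fgf14, Cacna1d, Cacna1g and Cacna1h are higher in the cluster without overlap, and Fgf13 and Scn4a are lower, Scn4a with 1 UMI in the cluster.

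Cardiomyocytes split into 7 states, 5 of them with at least 20 nuclei in each library. None raised enough chamber or conduction markers for a name at this resolution, so each is called by a leading gene: Gm30624 (1925 nuclei), Ptgds (2288), Epha6 (1424, led also by Rp1 and Etv1), Flt1 (241, led by endothelial genes, with 2 of 8 atrial markers raised) and Nppa (284). The best list of the Epha6 state was that of conduction, with 2 of 7 markers raised. Names did arise in other settings. At state resolution 0.3 a state of 208 nuclei with Flt1 among its leading genes was atrial-like. At 0.8 a state of 68 nuclei led by Slit2 was conduction-like, and the state led by Rp1 and Epha6 raised 0 of 7 conduction markers. Both names also arose with the 8 genes kept in the clustering. A state led by Gm10800 and Ccna2 (222 nuclei) had 1 nucleus in Tg female 1, and a state led by Ebf2 and Gpc6 had 40 nuclei in all.

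Of the 8 genes, only Fgf14 had no overlap with the other cardiomyocytes in both the Epha6 and the Nppa state. The Epha6 state held 1076, 1226, 809, 997 and 997 CPM (1021 ± 151 SD, n = 5), and all other cardiomyocytes 373 ± 112 (235 to 545), a mean log2 ratio of 1.49 ± 0.358 with no overlap. The Nppa state held 280, 213, 99.3, 162 and 169 CPM (185 ± 67.1) against 528 ± 122 (347 to 690), a log2 ratio of -1.56 ± 0.223, again with no overlap. Between these extremes lay the Flt1 state at 555 ± 197, the Gm30624 state at 451 ± 127 and the Ptgds state at 267 ± 85.1 CPM, and each of these neighbours overlapped the next. Median depth, relative to all cardiomyocytes of the same library, was 0.975 in the Epha6, 1.15 in the Flt1, 1.23 in the Gm30624, 0.8 in the Ptgds and 1.11 in the Nppa state, and its part in these values was not tested.

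Fgf13 ran the same way over a narrower span. It was at 3596 ± 780 CPM in the Epha6 state against 2998 ± 692 in the rest (log2 ratio 0.266 ± 0.0694, higher in 5 of 5 libraries), and at 1960 ± 636 in the Nppa state against 3185 ± 725 (log2 ratio -0.736 ± 0.267, lower in 5 of 5). These ranges overlapped across libraries, since Tg female 1 was high in every state. Scn4b was below the rest in both states in 5 of 5 libraries, at 25.5 ± 8.18 against 36.7 ± 11.9 CPM in the Epha6 state and at 15.8 ± 9.7 against 35.2 ± 11 in the Nppa state, which held 39 UMIs in all and none in Tg female 2. Scn4a, Scn7a, Hcn2, Hcn4 and Fgf12 lay on both sides of the rest in different libraries. Fgf12 was highest on average in the Flt1 state, at 78 ± 80.4 CPM with a range of 0 to 187.

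Beside these counts stand those of all genes. In the Epha6 state 2 of the 8 genes were above the rest in 5 of 5 libraries and 1 below, where 7.59% of 14945 genes were above and 12.8% below. In the Nppa state 0 were above and 3 below, where 6.71% of 15357 genes were above and 12.4% below. The median log2 ratio of the 8 genes was 0.026 in the Epha6 state and -1.14 in the Nppa state, against -0.0579 and -0.13 for all genes. The value of -1.14 lies between Fgf12 (-0.906, from 29 UMIs in 3 nuclei of the state) and Hcn2 (-1.38, from 15 UMIs). Both had libraries without a UMI there, so this median rests on genes near the floor. Of the 31 related genes, 20 were measured in the Epha6 state, with 3 above (Scn10a, Cacna1d and Cacna1h) and 3 below, among them Camk2d, and 19 in the Nppa state, with 4 above (Ank3, Camk2d, Pkp2 and Cacna1g) and 3 below (Nedd4l, Dlg1 and Gja1). Over 25 points of 5 states in 5 libraries, Fgf14 ran most like Phkg1 (r = 0.907), Mpped2 and Klhl33, and Fgf13 like Ccdc141 (0.924), Tbc1d4 and Prrg1.

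**Figure D3:**
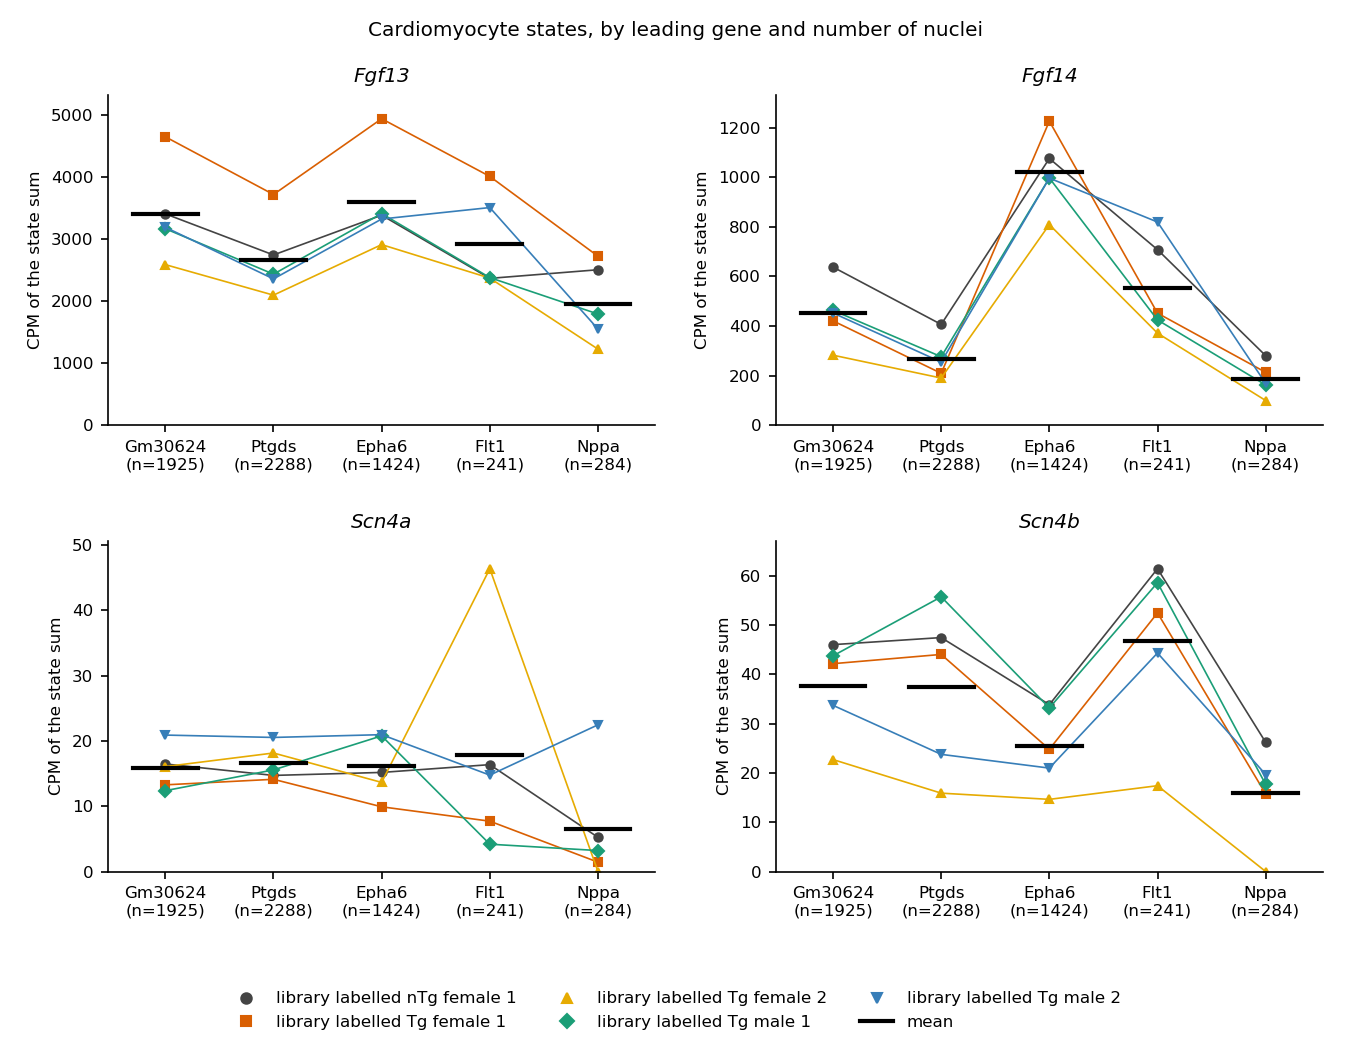
CPM of Fgf13, Fgf14, Scn4a and Scn4b in 5 cardiomyocyte states named by a leading gene, with 1 line per library across the states and a bar at the mean. Fgf14 peaks in the Epha6 state in each library and has its lowest mean in the Nppa state, and Fgf13 and Scn4b are lower in the Nppa state than in the Gm30624 state.

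Female and male libraries both had replicates only among those labelled Tg, and the main test set these 2 against 2. Ccna2 in cardiomyocytes was at 0.532 and 840 CPM in these females and at 237 and 144 CPM in these males. The part of this difference in the sex contrast was not tested. Nothing in the labels says that libraries came from separate hearts, so p-values measure the spread between these libraries, which may be technical. In cardiomyocytes none of the 8 genes passed edgeR's quasi-likelihood test at a Benjamini-Hochberg adjusted p of 0.05, and 4 of 14966 genes did (0.0267%). DESeq2 also called 0 of the 8, and 0.715% of all genes. At an unadjusted p under 0.05, 1 of the 8 was found, against 7.07% of all genes. That gene was Fgf12, at 13.2 and 6.28 CPM in females and 5.38 and 2.33 in males, a log2 difference (female minus male) of 1.34 with a standard error of 0.486 and an edgeR adjusted p of 0.636. Hcn2 was at 11.1 and 9.26 CPM in females and 6.93 and 6.63 in males, without overlap, a difference of 0.56 (SE 0.239, edgeR adjusted p 0.704).

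For Fgf13, an X-linked gene, the spread between the female libraries (4314 and 2398 CPM) was wider than the gap to the males (2896 and 2906), and the difference was 0.18 (SE 0.329, edgeR adjusted p 0.966). Fgf14 was at 525 and 333 CPM in females and 510 and 516 in males (-0.29, SE 0.258, edgeR adjusted p 0.912). Without the library labelled Tg female 1, whose Ccna2 level went against its label, Fgf14 was called lower in the 1 remaining female library (-0.70, edgeR adjusted p 0.0463), on the assumption that it varies like the male pair. That fit called 425 of 15603 genes (2.72%). The remaining 4 genes had overlapping values and log2 differences between -0.38 and 0.10. Of the 31 related genes, 19 were tested in cardiomyocytes, 0 were called and 2 had an unadjusted p under 0.05. A simulation of this design recovered 31.2% of genes changed 2-fold and 81.3% of those changed 4-fold, and 15 genes simulated without a change were called.

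**Figure D4:**
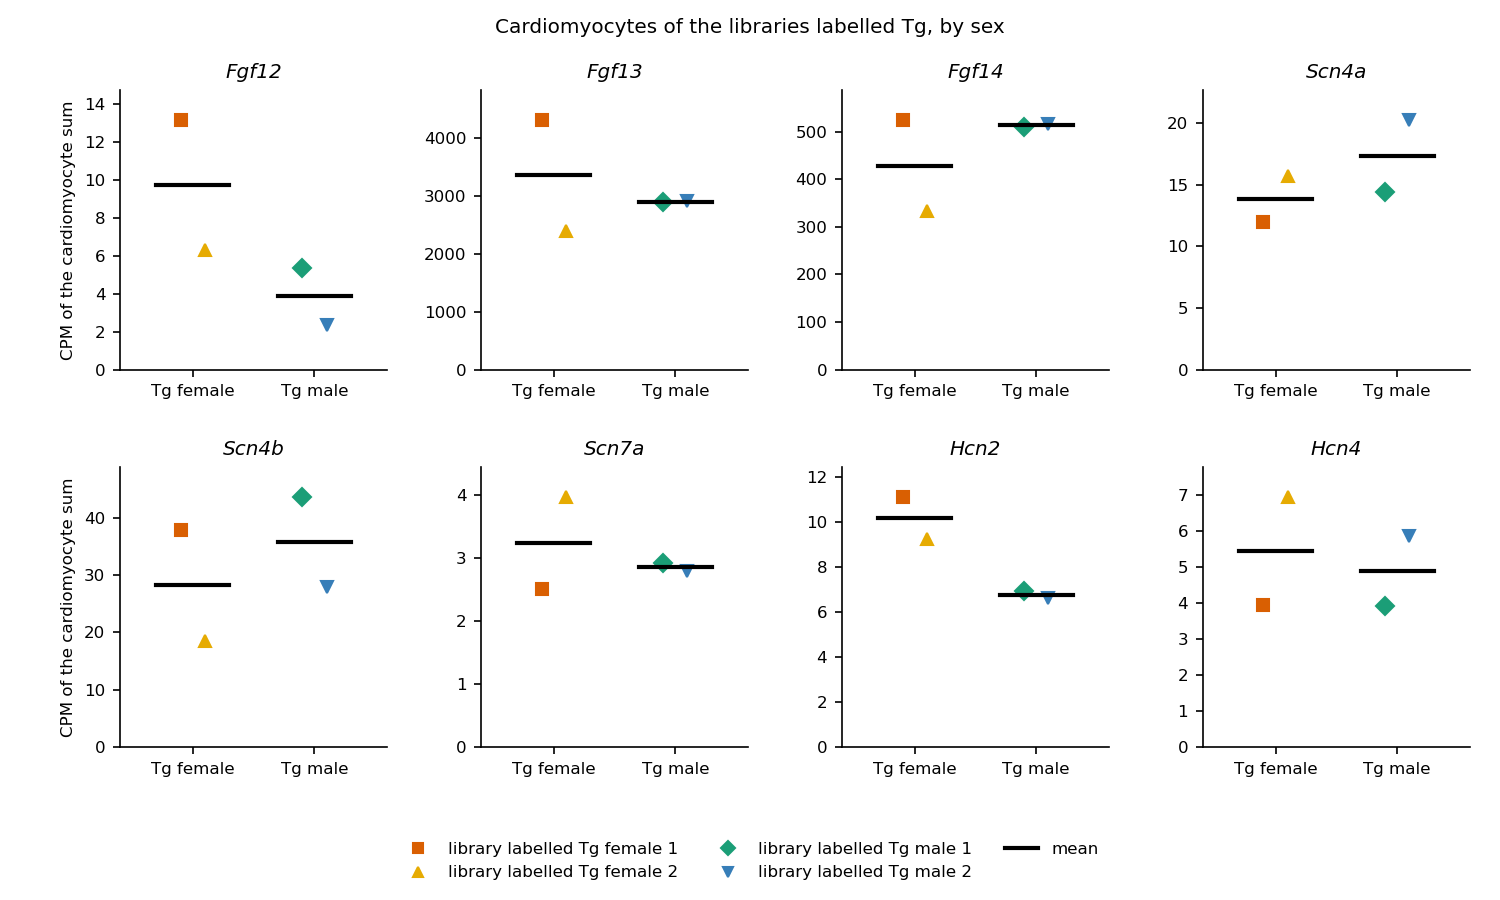
CPM of the 8 genes in cardiomyocytes of the 4 libraries labelled Tg, with females left, males right, 1 symbol per library and a bar at the mean of 2 libraries. Only Fgf12 and Hcn2 separate the sexes without overlap, with both female libraries above both male libraries.

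In the other 7 classes tested, 14 of 56 gene-by-class pairs passed the filter on low counts, 0 were called by edgeR (0.219% of 71303 gene-by-class tests were), and 1 had an unadjusted p under 0.05 (7.9% of all). It was Scn7a in fibroblasts, at 594 and 503 CPM in females and 793 and 838 in males, a log2 difference of -0.66 with a standard error of 0.202 and an edgeR adjusted p of 0.314. DESeq2 called it (-0.67, adjusted p 0.0458), and so did edgeR without Tg female 1 (-0.83, adjusted p 0.0144); these fits called 1.52% and 5.2% of all genes in fibroblasts, where the first fit called 0.349%, and 0.625% and 3.05% of the gene-by-class tests over the 7 classes. Fibroblast clusters were unevenly shared between these libraries. The cluster led by Fgf10 and Inmt held Scn7a at 892 ± 68.7 CPM. It had 382 of 3243 and 101 of 2780 fibroblast nuclei in females, and 720 of 2507 and 777 of 2097 in males. The part of this make-up in the Scn7a difference was not tested. In lymphatic endothelium, Fgf12 was at 208 and 184 CPM in females and 278 and 226 in males (-0.38, SE 0.23, edgeR adjusted p 0.923). The difference of the sex effect between cardiomyocytes and each other class was tested for 56 gene-by-class pairs, of which 27 had fewer than 10 UMIs in the other class. Among all 56, 1 was called by edgeR (0.189% of 106634 tests over all genes were) and 9 had an unadjusted p under 0.05 (6.61% of all), 8 of them among the 29 pairs with at least 10 UMIs and 1 among the rest. These pairs are not independent, since each fit used the same cardiomyocyte sums. Fgf12 alone had such a p against lymphatic endothelium, pericytes and fibroblasts. The called one was Fgf12 in lymphatic endothelium, whose sex effect was lower than that in cardiomyocytes by 1.77 on the log2 scale (log2 -1.77, SE 0.372, edgeR adjusted p 0.0457). In cardiomyocytes this gene rested on few nuclei: 167 of the 173 UMIs of Tg female 1 came from 10 nuclei. The call was lost without Tg female 1, without Tg male 1 and without Tg male 2 (adjusted p 0.419, 0.216 and 1).

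The library labelled nTg female 1 has no replicate, and only its counting error can be given. In cardiomyocytes it lay outside the range of the 4 libraries labelled Tg for 4 of the 8 genes, against 33.3% of 14578 genes (20% below and 13.3% above). Without the library labelled Tg female 1 it lay outside for 6 of the 8, with Fgf13 and Hcn2 also above, against 45.7% of genes, and with TMM scaling for 5, with Scn4b also above. Fgf12 was below, at 0.629 CPM (95% exact Poisson interval 0.231 to 1.37, counting error only) against 2.33 to 13.2, and Fgf14 above, at 673 CPM (657 to 690) against 333 to 525. Hcn4 at 3.35 CPM (2.29 to 4.73) and Scn7a at 2.2 CPM (1.36 to 3.36) were below the Tg ranges of 3.92 to 6.94 and 2.51 to 3.97, within their counting intervals. Since Ccna2 in this library went against its label, and the library is single, genotype and library cannot be told apart in these values.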

How the data were processed

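The deposited matrices hold UMI counts per gene and nucleus, which the authors made with Cell Ranger 7.0.0, per the file headers, on mm10, per the submitters' processing notes. Nuclei with at least 200 genes and at most 5% mitochondrial counts were kept. Doublets (7.63% to 9.68%) were removed with scrublet in scanpy 1.11.5. In Tg female 2, where its automatic threshold marked 0%, the highest scores were removed up to the mean share of the other libraries, a rule set after seeing the data. Nuclei were clustered (2000 variable genes, 30 components, 15 neighbours, Leiden resolution 1; 0.5 for states) without the 8 genes, Ccna2, sex-linked and mitochondrial genes. Clusters were named from marker lists.

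Counts were summed per library and class and expressed as CPM. Sex was tested with edgeR 4.0.16 (quasi-likelihood, TMM scaling, filterByExpr, Benjamini-Hochberg over all genes tested), with DESeq2 1.42.0 as an alternative; the fit was tested on simulated data. Standard errors are the log2 difference divided by the root of the F statistic. Log2 ratios used a pseudocount of 1 CPM. All 8 genes are named and lists of related genes are counted whole; the 3 genes most alike in level were taken for each. The genes and lists were chosen with earlier results of these data known. Some genes of these lists and of the most alike genes are not reported here. Alternatives changed clustering, filters, doublets, scaling and libraries.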

Additional observations from a re-analysis of the deposited data

Results flagged for a closer look

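The sex effect on Fgf12 differed between lymphatic endothelium and cardiomyocytes by a test of the difference itself: log2 -1.77 (lymphatic minus cardiomyocyte, female minus male; SE 0.372, edgeR quasi-likelihood adjusted p 0.0457). Of the 14710 genes in that fit, 0.0952% were called. Females were lower in lymphatic endothelium (208 and 184 against 278 and 226 CPM) and higher in cardiomyocytes (13.2 and 6.28 against 5.38 and 2.33 CPM), and neither effect passed the test on its own. The cardiomyocyte side rested on few nuclei, since 10 nuclei held 167 of the 173 UMIs of Tg female 1. The call was lost without Tg female 1, without Tg male 1 and without Tg male 2. Over the alternatives the adjusted p ran from 5.2e-05 (without Tg female 2) to 1 (without Tg male 2), and the difference was negative in 6 of 6.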

How the results depend on the processing

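The highest class was the same for 8 of 8 genes under each other clustering and filter and without each single library, and for 7 of 8 (not Scn4b) under 1 chosen after seeing the data, without both libraries whose Ccna2 level went against the label. Leaving out 1 library at a time, the number of the 8 genes called for sex ranged from 0 to 1 in cardiomyocytes (1 without Tg female 1) and from 0 to 1 in other classes (1 without Tg female 1), and the number of called differences of the sex effect ranged from 0 to 1. DESeq2 called 1 of the 8 in other classes, where it called 0.625% of all gene-by-class tests; edgeR called 0.219%, and 3.05% without Tg female 1. Fgf14 in the Nppa state kept its direction, with log2 ratios of -1.07 at state resolution 0.8, -1.30 with doublets kept and -1.62 to -1.50 without 1 library; in the Epha6 state the ratio without 1 library was 1.39 to 1.62. Of the counts and main values, 61 stayed and 8 moved, and those 8 are among the values above; of the values of single genes, 434 kept their call or moved by less than the spread, 7 moved, 3 gained and 3 lost a call, and 0 reversed. Over all genes, the sex fit in cardiomyocytes called 4 genes with edgeR, 107 with DESeq2, 0 with at least 10 UMIs in every library, and 77 to 425 without 1 library. Replicate numbers were not taken to pair libraries, since same-numbered libraries deviated together with a correlation of 0.0585; a replicate block called 135 genes but 0 of the 8 genes in cardiomyocytes and 0 in other classes. Schwann cells (23 to 51 nuclei per library) and the Cntn2 cluster (6 to 39) limit the precision of their levels.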
